A study of Drosophila melanogaster with 6 samples.

Results

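The protein-coding genes of the fourth chromosome of Drosophila melanogaster were followed in ovarian mRNA from females with 1 copy or with both copies of the flamenco (flam) promoter deleted. Every gene row annotated as protein-coding on chromosome 4 in Ensembl release 115, assembly BDGP6.54, was taken as a member. All 80 such genes had a count, out of 17760 rows in the table, of which 17633 are genes and 127 are transposon families. The filter on low counts kept 70 of the 80, and those 70 were tested among 9229 rows. The comparison set was the 11664 other protein-coding genes of arms 2L, 2R, 3L and 3R, of which 7171 were tested.

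The study has 6 libraries of ovaries from flies 3 to 6 days old. The 3 homozygous libraries come from flamDeltaProm/flamDeltaProm; +/+; +/+ females, in which the flam promoter is deleted on both X chromosomes. The 3 control libraries come from flamDeltaProm/FM7; +/+; +/+ females, which carry the same deletion once, over FM7, a balancer X chromosome with inversions. Their titles call these controls WT while the genotype field gives FM7, and the genotype field was used here. All 6 libraries therefore carry at least 1 copy of the deletion, and a second copy of it cannot be told apart from the absence of FM7. The ovaries with a somatic knockdown that the series also mentions were not analysed here. The labels give no genotype for chromosome 4, and nothing in them states that replicates came from separate animals, so the p-values measure only the spread between these libraries, which may be technical.

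Chromosome 4 is a very small autosome that is packed largely as heterochromatin, with the mark H3K9 methylation and the protein HP1 over much of its length, and it is dense in remnants of transposons. Its genes are nevertheless transcribed, and many are broadly active. The protein Pof binds these genes and raises their output, and the methyltransferase encoded by egg, the fly Setdb1, places much of the H3K9 methylation there. flam is a piRNA cluster on the X chromosome. In the somatic follicle cells of the ovary its piRNAs guide Piwi to transposons, where H3K9 methylation is then laid down.

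Library totals ran from 19564819 to 23181058 counts. The flam row stood at 0.507, 0.251 and 0.760 CPM (counts scaled to library size with TMM factors) in the homozygotes and at 1.93, 1.97 and 1.92 CPM in the FM7 controls, with adjusted p = 0.0119 in edgeR's quasi-likelihood test and a log2 fold change of -1.93 (SE 0.39). The markers of cell types moved too. Of 5 follicle cell markers, 3 fell (tj, br and Yp1) and Fas3 rose. Their summed level was 1839 to 2560 CPM in the homozygotes against 3588 to 3820 CPM in the controls. Most of that sum was the yolk protein gene Yp1, at a mean of 2110 against 3542 CPM, so it does not read follicle cells alone. Of 5 germline markers only aub rose and none fell, with sums of 2254 to 2491 against 2222 to 2479 CPM. Those sums were mostly osk, at 1561 against 1566 CPM. Of 8 haemocyte markers 6 rose, by log2 fold changes of 3.11 to 3.78, and srp fell. Pxn was at a mean of 29.4 against 3.34 CPM and Hml at 6.99 against 0.750 CPM, while the sums of 303 to 335 against 302 to 324 CPM were mostly crq, at 216 against 208 CPM. NimC1 had no count in FM7 replicate 3, and NimC1 and eater entered the test through the homozygous libraries, in which they are higher. Of 4 oviduct markers 3 were tested and none passed, with sums of 13.7 to 32.3 against 18.3 to 34.5 CPM and Send2 at 0 in every control. The part of these cell types in the values below was not tested, and in whole ovaries fewer cells of a type cannot be told apart from less RNA per cell.

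The genes of chromosome 4 were on the whole a little lower in the homozygotes. At an adjusted p of 0.05, 12 of the 70 tested members fell (17.1%) and 5 rose (7.14%), and 53 did not pass. Over all rows tested the same rule called 7.71% lower and 12% higher, and 19.7% in either direction. Among the other autosomal genes weighted to the members' expression levels, 7.57% were lower and 11.7% higher. Since the members were chosen with results of these data known, the difference between these shares was not tested. At an unadjusted p under 0.05, 27 members were lower and 10 were higher. No share of all rows is given for that unadjusted threshold, so these counts cannot be compared with all rows. The 3 libraries of each genotype did not overlap for 43 members (61.4%, against 41.9% of all rows), with the homozygotes below in 30 (20% of all rows) and above in 13 (21.8% of all rows).

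The counts of called members depended on single libraries, and so did those of all rows. Without homozygous replicate 1, 5 members were called higher (10.8% of all rows) and 6 lower (6.9% of all rows). Without homozygous replicate 2 there were 3 higher (7.93%) and 3 lower (3.37%). Without homozygous replicate 3 there were 2 higher (5.87%) and 4 lower (2.43%). The count of lower members was thus smaller whenever a homozygous library was left out. Leaving out FM7 replicate 1 gave 1 higher (6.02%) and 3 lower (3.03%). Leaving out FM7 replicate 2 gave 2 higher (9.99%) and 4 lower (4.52%). Leaving out FM7 replicate 3 gave 2 higher (10.6%) and 17 lower (8.98%). The genes dati, 4E-T and Kif3C were called in all 6 of these fits. When libraries were scaled by their totals alone, 7 members were called higher (17% of all rows) and 2, dati and 4E-T, lower (3.49% of all rows). DESeq2, run without the filter, called 5 of the 80 higher (7.92% of all rows) and 15 lower (5.58% of all rows), and edgeR without the filter called 3 higher (7.58%) and 11 lower (4.76%). With the replicate number as a block, 3 were called higher (7.58% of all rows) and 5 lower (3.78% of all rows).

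The median log2 fold change of the 70 tested members was -0.10, with quartiles of -0.18 and 0.05, and 50 of the 70 (71.4%) were below 0. The matched autosomal genes had a median of -0.01, with 52.4% below 0, which leaves a difference of -0.09 between the medians. Across the tested genes of the other arms the median was -0.02 on 2L, -0.01 on 2R, -0.03 on 3L, -0.01 on 3R and 0.02 on the X chromosome, and it was -0.01 over all genes. Scaling by library totals alone moved the members to -0.02 and the matched genes to 0.07 and left the difference between them at -0.09.

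Seen library by library, the median deviation of the members from their own mean over the 6 libraries, on the log2(CPM + 0.5) scale, was -0.0453, -0.0665 and -0.0187 in the homozygotes. It was 0.0211, 0.0352 and 0.0416 in the controls. Every homozygous library thus stood below every control library, with homozygous replicate 3 nearest to them. The matched autosomal genes stayed between -0.00537 and 0.00194 in all 6 libraries. The spread between replicates of the members' median deviation was 0.0185 (pooled SD within groups).

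**Figure D1:**
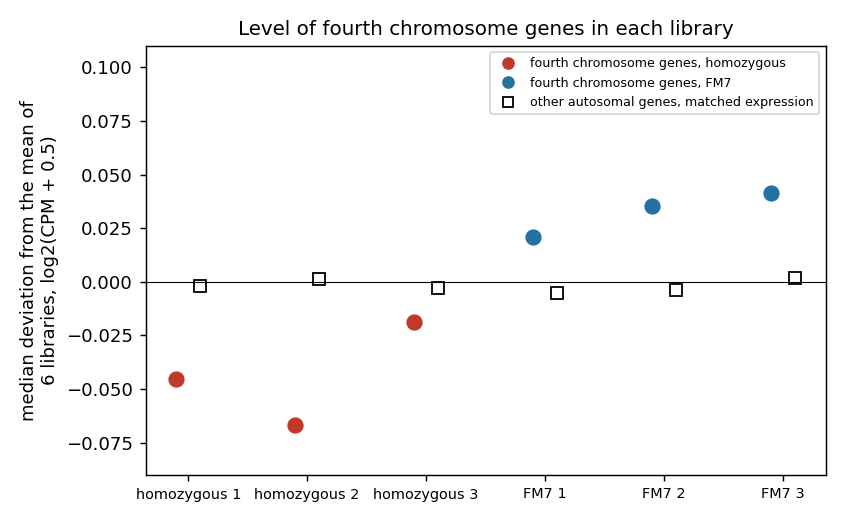
Median deviation of the 70 tested chromosome 4 genes (filled circles) and of other autosomal genes matched on expression (open squares) from their mean over the 6 libraries, on the log2(CPM + 0.5) scale, for each library on the horizontal axis. The 3 homozygous libraries lie between -0.0665 and -0.0187 and the 3 FM7 libraries between 0.0211 and 0.0416, while the matched genes stay near 0.

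The chromosome's share of all counts was 1.07%, 1.08% and 1.09% in the homozygotes (mean 1.08% ± 0.00919, SD, n = 3). In the controls it was 1.12%, 1.11% and 1.16% (mean 1.13% ± 0.0282, SD, n = 3). The homozygotes were again all below the controls. RpS3A alone held 30.7% of the members' counts, ATPsynbeta 16.7% and eIF4G1 4.54%. Without these 3 genes the share was 0.523%, 0.525% and 0.529% in the homozygotes and 0.519%, 0.524% and 0.566% in the controls, and the groups overlapped.

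The direction of the members differed by level. Of the 23 members with a mean of at least 100 CPM all 23 had a log2 fold change below 0, with a median of -0.12, and 4 of them fell while none rose. Among the 1739 other autosomal genes at that level 62.7% were below 0, with a median of -0.04, and 7.99% fell while 4.08% rose. This count of 23 became 16 when libraries were scaled by their totals alone (35.5% of the other genes), and 20 without FM7 replicate 3 (57.3%). Of the 28 members between 10 and 100 CPM, 7 fell and 1 rose, with a median of -0.13 against -0.05 for other genes of that level. Of those other genes 9.90% fell and 6.89% rose. Of the 19 members under 10 CPM, 4 rose and 1 fell, and their median was 0.35. Other autosomal genes under 10 CPM were also higher, with a median of 0.61, and 29.5% of them rose while 3.68% fell. A gene near the filter can enter the test through the group in which it is higher, so the counts and medians of this class are given as a description only.

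**Figure D2:**
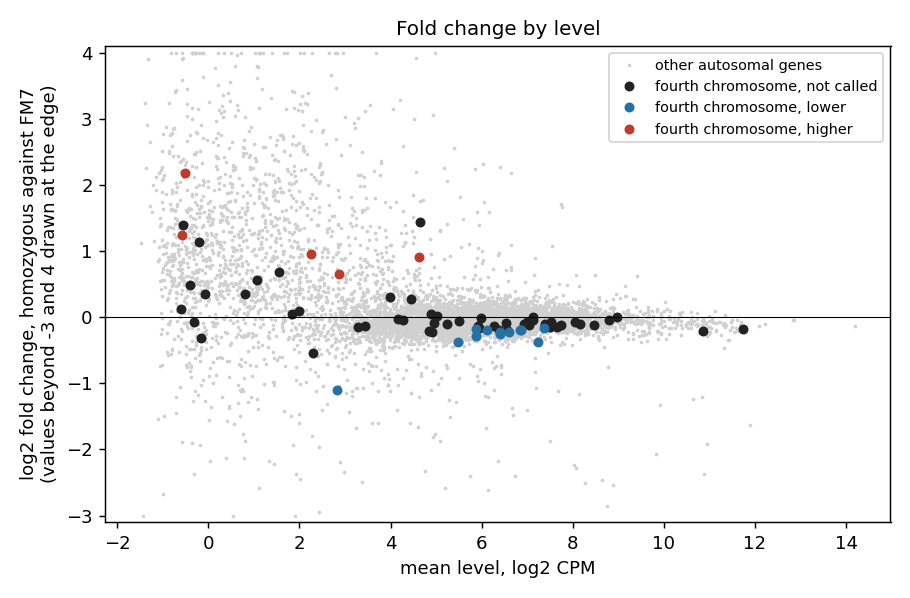
Log2 fold change of homozygotes against FM7 controls (vertical axis) by mean level in log2 CPM (horizontal axis) for the tested chromosome 4 genes, coloured by call, over the other autosomal genes in grey. The chromosome 4 genes at high level lie in a narrow band below 0, with a median of -0.12 at 100 CPM and above, and of the 5 that rose 4 are under 10 CPM.

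Most genes that rose were of low level. Per length, the 12 that fell had a median of 30.9 RPKM (CPM divided by exonic length in kilobases) in the controls, and a median change of -14.4%. The 5 that rose had a median of 0.614 RPKM in the controls, between 0.0485 and 0.871 RPKM. The controls are also the base of the fold change, which by itself makes genes that rose look lower there. NfI and Kif3C of the 5 entered the test through the homozygous libraries, so these levels are a description only. In the homozygotes dati, which fell, was at 0.725 RPKM, below CG1674 at 1.40, CG11155 at 1.36 and bt at 1.15 RPKM, which rose. Only dati, NfI and Kif3C among the called members changed by at least 2-fold, against 8.7% of all rows tested that were called and changed by that much.

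**Figure D3:**
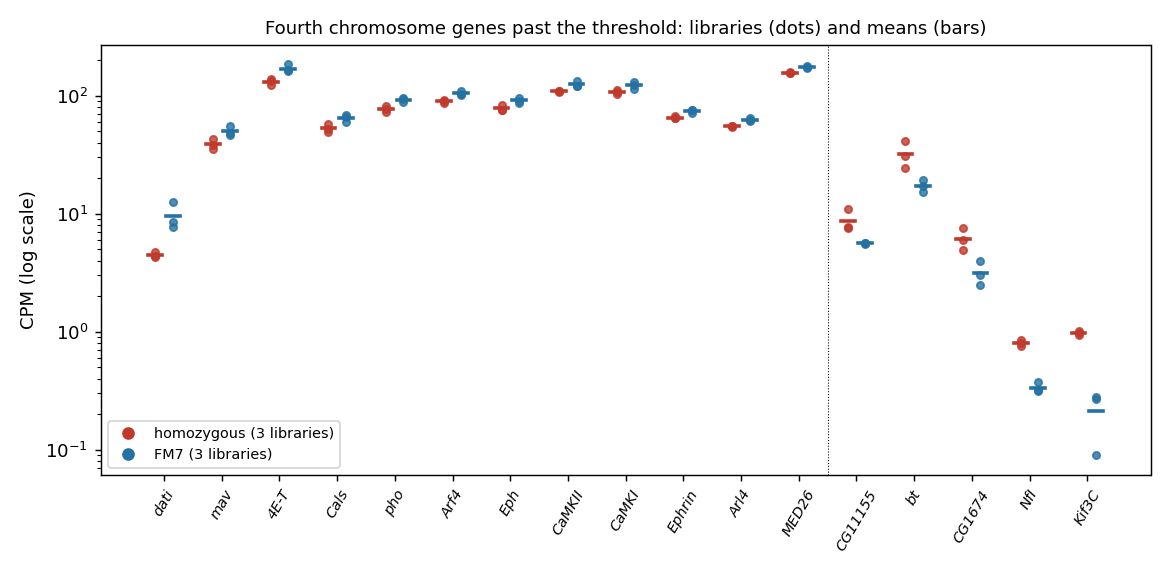
Level in CPM (logarithmic axis) of the 17 chromosome 4 genes past the threshold in each homozygous and FM7 library (dots), with group means (bars), the 12 that fell left of the dotted line and the 5 that rose right of it. The groups do not overlap for any of these genes, and the falls other than dati are small.

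The roles below were assigned after the values were seen, so the counts by role are a description, to be read beside the 7.71% of all rows that fell and the 12% that rose.

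Transcription and chromatin factors were the largest group of members by role, with 20 genes, of which 16 were tested. Of these, 3 fell and 1 rose, and the median log2 fold change was -0.06. The gene dati, at positions 375640 to 395605 on the minus strand, encodes a zinc finger transcription factor. Its level was 4.31, 4.77 and 4.35 CPM in the homozygotes and 8.42, 7.77 and 12.6 CPM in the controls. The groups were well apart, with FM7 replicate 3 the highest. It fell by 53.4%, a log2 value of -1.10 (SE 0.21, adjusted p = 0.00962, edgeR's quasi-likelihood test), and the largest adjusted p over the fits with 1 library left out was 0.0435. Its exons overlap those of an antisense RNA, asRNA:CR44027, over 210 bases, and the sources do not state if reads were counted by strand.

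The Polycomb group gene pho, whose DNA-binding protein recruits Polycomb complexes, was at 81.6, 77.4 and 73.4 CPM in the homozygotes and at 94.96, 93.1 and 87.8 CPM in the controls. All 3 homozygous values were below all 3 controls, by a log2 change of -0.25 (SE 0.06, adjusted p = 0.0224, edgeR's quasi-likelihood test). MED26, a subunit of the Mediator complex that links transcription factors to RNA polymerase, was at 159, 157 and 156 CPM against 173, 175 and 180.1 CPM. Replicates lay within a few CPM of each other, and the log2 fold change was -0.17 (SE 0.05, adjusted p = 0.0367). The call of pho was lost without FM7 replicate 1, FM7 replicate 2, homozygous replicate 2 or homozygous replicate 3, with adjusted p up to 0.0953. Of the fits with 1 library left out MED26 kept its call only without FM7 replicate 3, its adjusted p reached 0.129 in the others, and it was 0.0530 without the low-count filter.

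NfI, the fly member of the Nuclear factor I family, was the factor that rose. Its level was 0.803, 0.753 and 0.844 CPM in the homozygotes and 0.314, 0.319 and 0.375 CPM in the controls, from 57 and 21 counts in all. Its replicates held 19, 18 and 20 counts against 7, 6 and 8, so few that their closeness is no measure of precision. The log2 fold change was 1.24 (SE 0.33, adjusted p = 0.0317, edgeR's quasi-likelihood test). The call was lost in every fit that left out a library, homozygous replicates 1, 2 and 3 and FM7 replicates 1, 2 and 3 alike, with adjusted p up to 0.120, and also without the low-count filter (adjusted p = 0.0775) and in DESeq2 (adjusted p = 0.171). NfI entered the test through the homozygous libraries, in which it is higher. The gene zfh2, a zinc finger homeodomain factor, had 0.718, 0.711 and 1.10 CPM against 0.448, 0.160 and 0.328 CPM and did not pass, at a log2 change of 1.40 (SE 0.44, adjusted p = 0.0529), though it passed with library totals alone as scaling (adjusted p = 0.0423). Like NfI, zfh2 entered the test through the homozygous libraries. The exons of zfh2 and of Tdg overlap on opposite strands over 2325 bases.

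The signalling effectors among the factors did not pass. For ci, the transcription factor of the Hedgehog pathway, the level was 16.5, 17.9 and 19.0 CPM in the homozygotes and 22.0, 18.3 and 13.9 CPM in the controls, with overlapping groups and a log2 fold change of -0.02 (95% interval -0.38 to 0.34). The partner genes of Wingless signalling, pan, which encodes the TCF factor, and lgs, which encodes its coactivator Legless, had log2 fold changes of 0.28 (adjusted p = 0.0741) and -0.04 (adjusted p = 0.695). The gene pan passed without homozygous replicate 1 (adjusted p = 0.0170) and with library totals alone (adjusted p = 0.0337). For Hcf, a chromatin cofactor, the interval was tight, from -0.11 to 0.10. Mitf, a regulator of lysosomal genes, was at -0.15 (adjusted p = 0.116).

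The eye and nervous system factors of the chromosome were near the floor of detection. The Pax6 gene ey was at 1.14, 0.418 and 0.506 CPM in the homozygotes and 0.985, 0.479 and 0.703 CPM in the controls, with a log2 fold change of -0.08 (95% interval -1.16 to 0.999). Its partner toy was not tested with all 6 libraries. It had 7, 21 and 13 counts in the homozygotes against 5, 3 and 4 counts in the controls, and the groups did not overlap. Without homozygous replicate 1 toy was tested and passed (adjusted p = 0.0326, edgeR's quasi-likelihood test), on these few counts. The Pax2 gene sv, the homeodomain gene onecut and the forkhead gene fd102C were not tested either, at no more than 0.506 CPM in any library. Sox102F, an HMG box factor, had 2.84 to 4.06 CPM against 2.93 to 3.94 CPM, and the groups overlapped.

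Signalling proteins and kinases had 5 falls and no rise among 13 tested genes of 14 (7.71% of all rows fell), and their median log2 fold change was -0.17. The gene mav, which encodes the TGF-beta family ligand Maverick, was at 37.9, 35.1 and 43.1 CPM in the homozygotes and 48.6, 46.7 and 55.6 CPM in the controls. Replicate 3 was the highest in both groups, and the groups did not overlap. Its log2 fold change was -0.38 (SE 0.09, adjusted p = 0.0234, edgeR's quasi-likelihood test). The other TGF-beta ligands of the chromosome did not pass or were not tested. Myoglianin, encoded by myo, had a log2 fold change of -0.06 (adjusted p = 0.423), and Activin-beta, encoded by Actbeta, stood at no more than 0.187 CPM in any library.

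Ligand and receptor of the Eph pathway, which signals between touching cells, both fell. Ephrin was at 67.1, 64.7 and 64.1 CPM in the homozygotes against 75.6, 76.2 and 71.5 CPM, and its receptor tyrosine kinase Eph at 84.1, 75.3 and 75.2 CPM against 90.03, 96.2 and 87.1 CPM. The groups were apart for both genes, with homozygous replicate 1 closest to the controls for Eph. The log2 fold changes were -0.19 (SE 0.05, adjusted p = 0.0361) for Ephrin and -0.22 (SE 0.07, adjusted p = 0.0466) for Eph in edgeR's quasi-likelihood test. Without FM7 replicate 1, FM7 replicate 2, homozygous replicate 2 or homozygous replicate 3 neither gene was called, with adjusted p reaching 0.133 for Ephrin and 0.162 for Eph. That of mav was lost without FM7 replicate 1, homozygous replicate 1 or homozygous replicate 2, with adjusted p up to 0.0801. The plexins, receptors for semaphorins, did not pass, at -0.07 for PlexA (adjusted p = 0.501) and -0.17 for PlexB (adjusted p = 0.0849).

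Both calmodulin-dependent kinases of the chromosome fell. CaMKII was at 109, 107 and 110.2 CPM in the homozygotes and at 121, 120.1 and 132 CPM in the controls. The homozygous replicates were within a few CPM of each other, and the log2 fold change was -0.20 (SE 0.05, adjusted p = 0.0327, edgeR's quasi-likelihood test). CaMKI, at 108, 103 and 111 CPM against 115, 124 and 129.7 CPM, had a log2 change of -0.20 (SE 0.06, adjusted p = 0.0496), close to the threshold. CaMKII lost its call without FM7 replicate 1 or any 1 of the homozygous replicates 1, 2 and 3 (adjusted p up to 0.103). CaMKI kept its call only without FM7 replicate 1, and its adjusted p reached 0.155 in the other fits. The adaptor gene Crk stood just outside, with a log2 fold change of -0.19 (adjusted p = 0.0586), and passed without FM7 replicate 3 (adjusted p = 0.0255).

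Translation and RNA factors held 1 fall and no rise among 7 tested genes, at a median log2 fold change of -0.12. The gene 4E-T, at positions 951542 to 958392 on the minus strand, encodes a protein that binds the cap-binding factor eIF4E and represses translation. Its level was 139, 133 and 122 CPM in the homozygotes and 161, 164 and 185 CPM in the controls. Every homozygous library was below every control, with the widest gap between both replicates numbered 3. It fell by 22.6%, a log2 value of -0.37 (SE 0.07, adjusted p = 0.0107, edgeR's quasi-likelihood test), and the adjusted p stayed at or below 0.0496 with any library left out.

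The other translation genes of high level did not pass. The ribosomal protein gene RpS3A, at 2682 RPKM in the controls the highest member per length, had 3179.6, 3070.4 and 3295 CPM in the homozygotes and 3727, 3720.1 and 3408 CPM in the controls. Its groups did not overlap, yet the log2 fold change of -0.19 had an adjusted p of 0.136, with FM7 replicate 3 well below the other controls. Without FM7 replicate 3 it passed (adjusted p = 0.0243), as it did in DESeq2 (adjusted p = 0.00494). For eIF4G1, the scaffold of the cap-binding complex, the levels of 467, 539 and 494 CPM against 472, 485 and 544 CPM overlapped and the log2 fold change was -0.00 (95% interval -0.18 to 0.18). The miRNA silencing factor gw was at -0.04 (adjusted p = 0.671), Gyf, a translational repressor, at -0.12 (adjusted p = 0.267), and Rad23, a proteasome shuttle, at -0.12 (adjusted p = 0.136).

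None of the 4 genes of mitochondria and metabolism passed, and their median log2 fold change was -0.11. ATPsynbeta, a catalytic subunit of ATP synthase, was at 1689, 1755 and 1693 CPM in the homozygotes and at 2014, 1891 and 2051 CPM in the controls. The groups were apart, with a log2 fold change of -0.21 (SE 0.07) and an adjusted p of 0.0686 in edgeR's quasi-likelihood test. It passed without FM7 replicate 3 (adjusted p = 0.0427) and in DESeq2 (adjusted p = 0.000295). ND-49, a subunit of respiratory complex I, was at -0.13 (adjusted p = 0.126), and at an adjusted p of 0.0304 without FM7 replicate 3.

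Of 4 genes of lipoprotein and transport 2 fell, where 7.71% of all rows did. Arf4, a small GTPase of the ARF family that acts in vesicle traffic, had 90.6, 91.6 and 87.5 CPM in the homozygotes and 104, 109 and 102 CPM in the controls. The replicates were tight in both groups, and the log2 fold change was -0.23 (SE 0.05, adjusted p = 0.0165, edgeR's quasi-likelihood test). The related GTPase gene Arl4 had 55.8, 53.9 and 55.8 CPM against 62.4, 64.4 and 60.6 CPM, with a log2 change of -0.18 (SE 0.05, adjusted p = 0.0400). Arf4 lost its call without FM7 replicate 1, FM7 replicate 2 or homozygous replicate 3 (adjusted p up to 0.0784). Arl4 kept its call only without FM7 replicate 3, and its adjusted p reached 0.118 in the other fits and was 0.0551 in DESeq2.

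The lipid carrier gene apolpp, known for its expression in fat body, had 37.0, 16.5 and 55.8 CPM in the homozygotes and 11.9, 12.8 and 15.5 CPM in the controls. The homozygotes were all above the controls but differed among themselves by more than the groups did at their nearest, and the log2 fold change of 1.44 (SE 0.49) had an adjusted p of 0.112. Without homozygous replicate 2, the lowest of its group, the adjusted p was 0.00748, and in DESeq2 it was 0.0276. Of 5 fat body markers, 2 of the 4 tested rose and none fell. FASN1 rose to a mean of 439 from 281 CPM in the controls and fit to 3.89 from 0.104 CPM, and fit entered the test through the homozygous libraries. The summed level of the 5 was 972 to 1302 CPM in the homozygotes and 1380 to 1576 CPM in the controls. Most of it came from Yp3, at 745 against 1198 CPM, which did not pass. Yp3 is a yolk protein gene like Yp1, a follicle cell marker above, so the sum does not read fat body alone. No marker was at 0 in all controls, and 3 were under 1 CPM there. The part of the fat body markers in the value of apolpp was not tested. Its exons also overlap those of Zyx on the other strand over 96 bases.

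Muscle and cytoskeleton genes held 2 of the 5 rises. Kif3C, at positions 1147466 to 1169239 on the plus strand, encodes a motor protein of the kinesin family. Its level was 0.930, 1.003 and 0.971 CPM in the homozygotes and 0.0896, 0.266 and 0.281 CPM in the controls, from 69 and 13 counts in all. Every homozygous library was far above the highest control, and the log2 fold change was 2.18 (95% interval 1.19 to 3.17, adjusted p = 0.0110, edgeR's quasi-likelihood test). The adjusted p stayed at or below 0.0482 with any library left out. Kif3C also entered the test through the homozygous libraries, and its adjusted p was 0.0132 without the low-count filter.

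The gene bt encodes projectin, a giant protein of the muscle sarcomere, and has the longest exonic sequence of the members, 28019 bases. It was at 24.5, 30.8 and 41.3 CPM in the homozygotes and 15.2, 19.2 and 17.1 CPM in the controls. The groups did not overlap, and the log2 fold change was 0.91 (SE 0.20, adjusted p = 0.0227, edgeR's quasi-likelihood test). The call was lost without FM7 replicate 1, FM7 replicate 3 or homozygous replicate 2, where the adjusted p reached 0.0980, and in the fit with no low-count filter (adjusted p = 0.0587). Of 8 markers of the muscle sheath, 5 rose (Mlc2, Prm, up, sls and Act57B) and none fell, at a median log2 fold change of 0.76. Their summed level was 690 to 897 CPM against 580 to 659 CPM, none was at 0, and their part in the value of bt was not tested. Zyx, which encodes the focal adhesion protein Zyxin, was at -0.09 (adjusted p = 0.294).

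Genes of synapse, channels and adhesion held 1 rise and 1 fall among 8 tested of 12. Cals, which encodes the transmembrane cadherin protein Calsyntenin, was at 49.4, 52.1 and 57.9 CPM in the homozygotes and 65.6, 68.5 and 59.9 CPM in the controls. Replicates numbered 3 came within a few CPM of each other, and the log2 fold change was -0.28 (SE 0.08, adjusted p = 0.0340, edgeR's quasi-likelihood test). CG11155, which encodes an ionotropic glutamate receptor, was at 7.52, 7.69 and 11.02 CPM against 5.60, 5.54 and 5.62 CPM. The controls were almost equal and homozygous replicate 3 was the highest, and the log2 fold change was 0.65 (SE 0.18, adjusted p = 0.0411). Cals lost its call without FM7 replicate 1, FM7 replicate 2, homozygous replicate 1 or homozygous replicate 2 (adjusted p up to 0.0996). CG11155 kept its call only without homozygous replicate 1, and its adjusted p reached 0.147 in the other fits.

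Exons of Cals overlap those of sv over 444 bases and exons of CG11155 overlap those of CG32017 over 90 bases, both on opposite strands. The metabotropic glutamate receptor gene mGluR was at 4.65, 3.43 and 3.80 CPM against 5.33, 5.96 and 5.95 CPM and did not pass (log2 fold change -0.54, adjusted p = 0.0839). The calcium pump gene PMCA was at -0.11 (adjusted p = 0.132). The group's JYalpha, dpr7, Gat and Ekar, were not tested. Of 9 neuron markers 2 were tested and neither passed, their sum was 4.48 to 8.44 CPM in the homozygotes and 3.51 to 4.05 CPM in the controls, and Rdl, VGlut and ChAT were at 0 in every control.

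Among the 16 members in none of these groups, 15 were tested and only CG1674 passed. CG1674 was at 5.96, 4.89 and 7.60 CPM in the homozygotes and 2.51, 3.03 and 3.94 CPM in the controls. The lowest homozygote was above the highest control, and the log2 fold change was 0.96 (SE 0.25, adjusted p = 0.0307, edgeR's quasi-likelihood test). The call was lost without FM7 replicate 1, FM7 replicate 2, homozygous replicate 1 or homozygous replicate 3, where the adjusted p reached 0.122. When FM7 replicate 3 was left out, CG11360 (adjusted p = 0.0484) and anne (adjusted p = 0.0321) passed too. The other 14 had log2 fold changes between -0.31 and 1.14 and a median over the 15 of -0.11. The largest of them was yellow-h, of the yellow gene family, at 0.845, 0.836 and 1.48 CPM against 0.493, 0.266 and 0.656 CPM, which did not pass (adjusted p = 0.0909). It entered the test through the homozygous libraries.

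**Figure D4:**
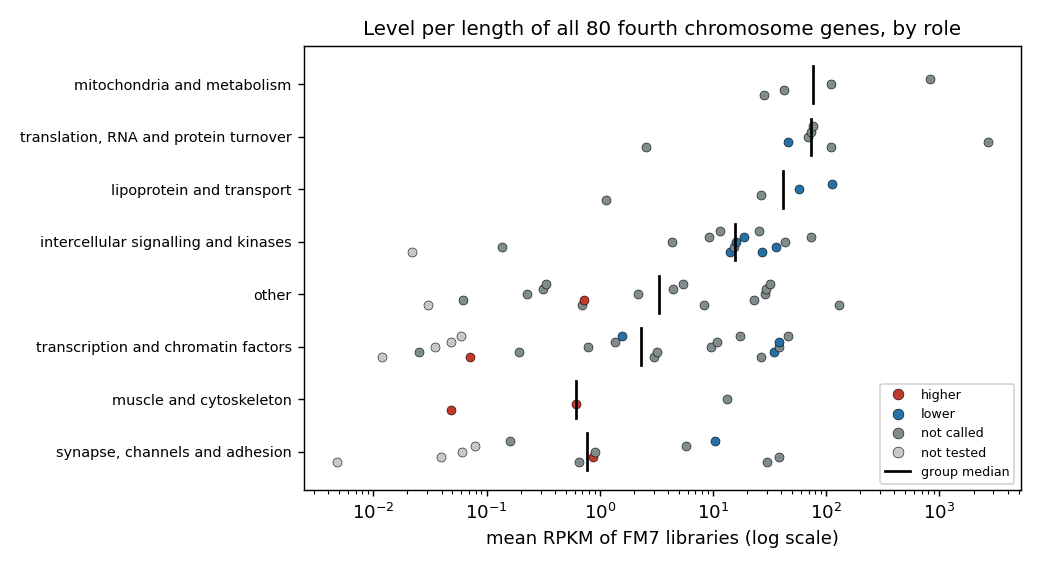
Mean level of all 80 chromosome 4 genes in the FM7 libraries in RPKM (logarithmic axis), by role, with each dot a gene coloured by its call and a bar at the group median. RpS3A at 2682 RPKM and ATPsynbeta at 832 RPKM stand above the rest. The 5 genes that rose are all under 1 RPKM in these libraries, which are also the base of the fold change.

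Calls were spread along the chromosome. Of the 40 members with the lower coordinates, 2 rose and 5 fell at a median of -0.10 in log2 fold change, and of the 40 with the higher coordinates 3 rose and 7 fell with a median of -0.11. Among 79 pairs of neighbouring members, 2 pairs both fell (Eph with mav and Cals with Arf4) and 0 pairs both rose. The 32 annotated rows of chromosome 4 that are not protein-coding had 12 tested and none called by edgeR, at a median log2 fold change of -0.14.

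**Figure D5:**
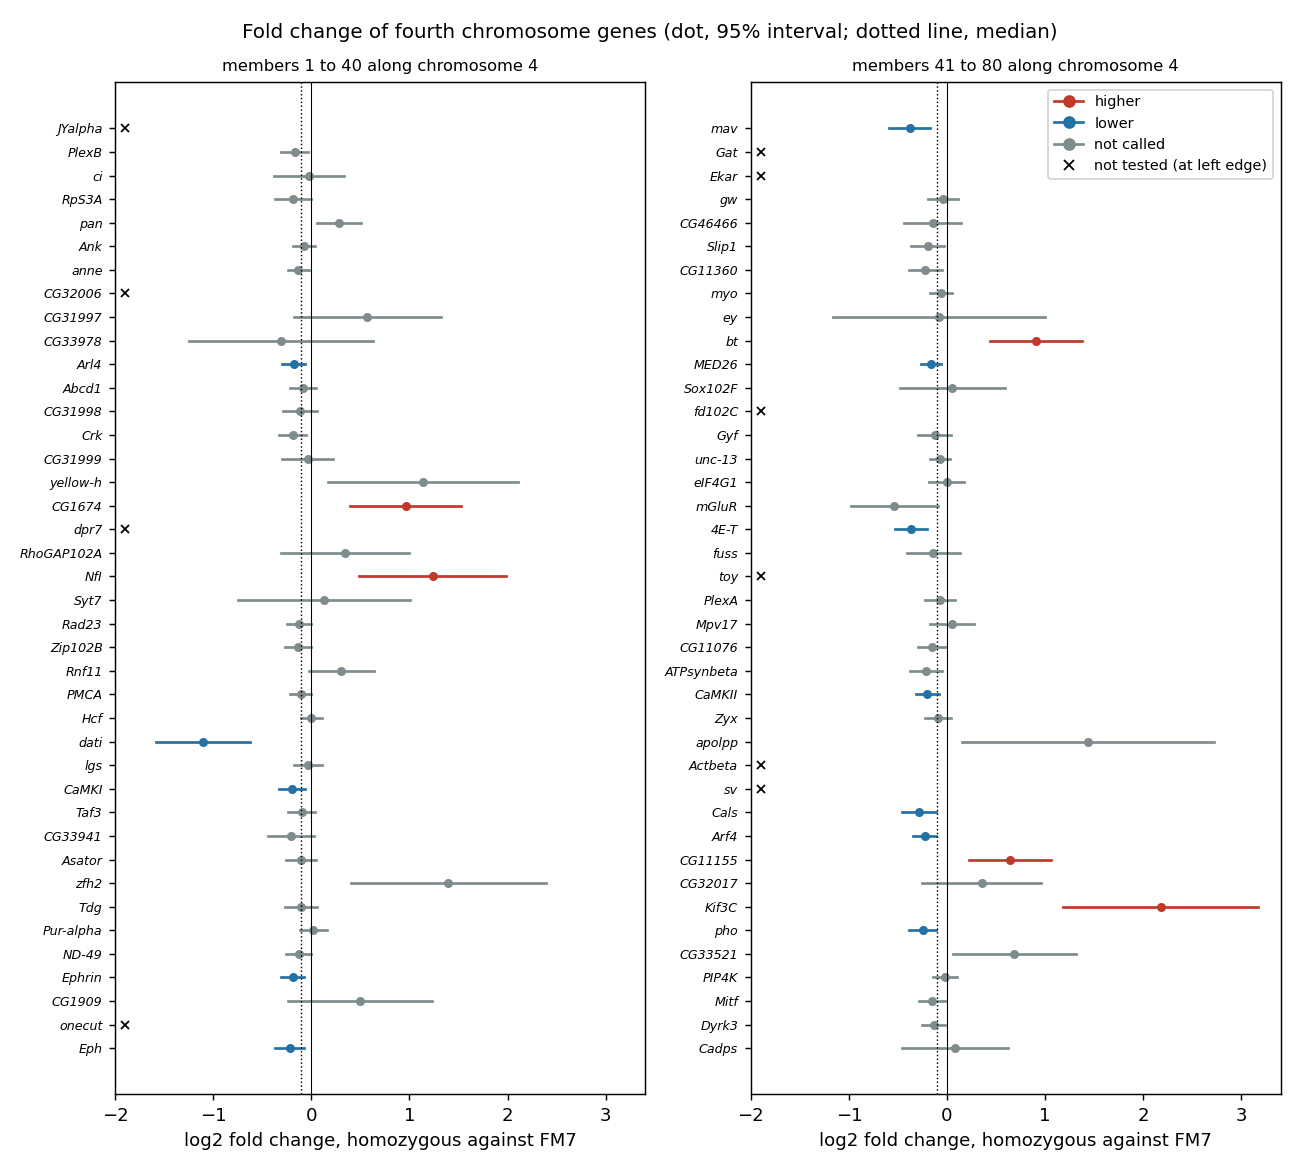
Log2 fold change of homozygotes against FM7 controls (horizontal axis, dots with 95% intervals) of the 80 chromosome 4 genes in order along the chromosome, coloured by call, with crosses at the left edge for the 10 genes not tested and a dotted line at the median of -0.10. Genes that fell occur in both panels. The widest interval is that of apolpp, at a mean of 24.9 CPM, and the next widest belong to genes of low level.

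The members differ from other autosomal genes in structure. Their median span was 10090 bases against 2087 bases, and their median exonic length was 4300.5 against 1688 bases. A copy of a transposon annotated in the reference genome lay within 66 of the 80 genes (82.5%), against 6.15% of the other autosomal genes, with 0.376 against 0.0259 copies per kilobase of span. INE-1, a short element that is abundant on this chromosome, was within 64 members and 1360 within 24. These are copies of the reference strain, and those of the flies studied were not analysed here. The copies covered 18.0% of the span of members and 3.97% of that of other genes.

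Members with and without such a copy had medians that lay close together. At a mean of at least 10 CPM, the 40 members with a copy had a median log2 fold change of -0.11 and the 11 without a copy one of -0.15. Other autosomal genes of that level with a copy had a median of -0.01 (404 genes) and those without one of -0.05 (5081 genes). Of the members, 11 held a copy of a tested transposon family that itself rose in the homozygotes, such as F in pan, Tirant in CG11360 and Quasimodo in Cadps. INE-1 and some other families, such as HB, S, gypsy2 and gypsy7, were not tested, so the direction of these families is not known. Copies of gypsy2 and gypsy7 lay within Kif3C, which rose and is not among the 11, and within CG32017, which did not pass. With all 6 libraries edgeR called none of the 11, where it called 19.7% of all rows, and their median log2 fold change was -0.04. Of the 11, pan passed without homozygous replicate 1 (adjusted p = 0.0170) and CG11360 without FM7 replicate 3 (adjusted p = 0.0484).

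Most of the known regulators of the chromosome did not pass the test. Pof was at 40.01, 37.7 and 37.3 CPM in the homozygotes and 43.4, 40.9 and 39.96 CPM in the controls. Those groups touched, with homozygous replicate 1 above FM7 replicate 3, and the log2 fold change of -0.11 (SE 0.06) had an adjusted p of 0.197 in edgeR's quasi-likelihood test. The methyltransferase gene egg was at -0.13 (adjusted p = 0.0831) and the gene of HP1 at -0.14 (adjusted p = 0.136), and egg alone of the 3 passed without FM7 replicate 3 (adjusted p = 0.0382). The list of 25 regulators of chromosome 4 and of heterochromatin was drawn broadly and also holds mof, msl-1, msl-3 and mle. Of these 25 genes 24 were tested, at a median of -0.04. Of them 2 rose (Hmr at 0.35 and the kinase gene JIL-1 at 0.20) and 1 fell (the cohesin gene vtd at -0.36). Over all rows 12% rose and 7.71% fell. The call of JIL-1 held in the fit without homozygous replicate 1 and was lost in the other 5 fits with 1 library left out (adjusted p up to 0.148). That of Hmr was lost without homozygous replicate 2, homozygous replicate 3, FM7 replicate 1 or FM7 replicate 2 (adjusted p up to 0.0961), and vtd kept its call in all 6.

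Genes in the heterochromatin next to the centromeres of the other chromosomes offer a second set that lies in heterochromatin. Of 27 such genes 25 were tested, and 6 fell (Nipped-A, Dbp80, vtd, uex, eIF4B and Haspin), where 7.71% of all rows did. Only 1, Snap25, rose, with 17, 21 and 22 counts in the homozygotes against 3, 4 and 0 in the controls. Among the 6 that fell, vtd is also in the list of regulators above. Snap25 entered the test through the homozygous libraries, in which it is higher. The median log2 fold change of the 25 genes was -0.15, and 23 of the 25 were below 0. At 10 CPM or more the 21 pericentric genes had a median of -0.15 with 6 falls and no rise, and the 51 chromosome 4 genes a median of -0.12 with 11 falls and 1 rise. Of other autosomal genes at that level, 9.65% of those with a transposon copy and 9.27% of those without one fell, and 11.9% and 5.53% rose. These counts and shares were not compared by a test.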

How the data were processed

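TRIzol RNA of whole ovaries went into strand-specific mRNA libraries, as the labels' protocols state. The authors deposited raw counts, as whole numbers, for each gene and transposon family. The submitters' processing notes name DESeq2 1.30.1, featureCounts 2.0.1 and STAR 2.7.8a but not what each did. No source used here states the build, annotation, strand setting or handling of multiply mapped reads behind the counts, so overlapping genes and near-identical copies may share reads. Symbols, positions, lengths and transposon copies were looked up by identifier in Ensembl release 115 (BDGP6.54), which may differ from the authors' build, and 35 identifiers had no match.

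The main test was run in edgeR 4.0.16 under R 4.3.3 (TMM, filterByExpr, robust quasi-likelihood test, Benjamini-Hochberg over 9229 rows, threshold 0.05). DESeq2 1.42.0, voom of limma 3.58.1, other scalings, no filter, a replicate block and each library left out were tried as alternatives. RPKM used union exonic length. Other autosomal genes were weighted to the members' numbers in 10 bins of mean log2 CPM. Within each group the replicates differed beyond sampling noise (chi-square per degree of freedom 8.18 to 38.9), and the labels name no batch. A library's 3 counts, the floor, equal 0.125 to 0.160 CPM, which covers counting error only.

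The members, gene lists and markers were chosen with earlier results of these data known, and the roles of members were assigned after their values were seen. Named genes were all called members, the 8 of highest CPM and a list of well-known members, with mGluR, Crk, Hcf, Tdg, ND-49, CG11360, CG32017, Cadps, anne, fd102C, JYalpha, dpr7, Gat, Ekar and yellow-h added after their values were seen. Same-numbered replicates did not deviate together, so the numbers were not taken to pair the libraries.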

Additional observations from a re-analysis of the deposited data

How the results depend on the processing

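The number of members that rose was 5 (12% of all rows), and 3 without the low-count filter (7.58%). It ranged from 1 to 5 with 1 library left out, where 5.87% to 10.8% of all rows rose. The number that fell was 12 (7.71% of all rows), and 2 with library totals alone as scaling (3.49%). It ranged from 3 to 17 with 1 library left out, where 2.43% to 8.98% of all rows fell. DESeq2 called 5 higher (7.92% of all rows) and 15 lower (5.58%). With the replicate number as a block, 3 members rose (7.58% of all rows) and 5 fell (3.78% of all rows). Same-numbered libraries had correlations of deviations of -0.27, -0.09 and -0.04, so nothing shows that these numbers pair the samples. The median log2 fold change was -0.10 and became -0.0214 with library totals alone, with a range of -0.111 to -0.0679 over fits without 1 library. The difference from matched genes was -0.0923, became -0.117 when matching also used exonic length, and ranged from -0.0987 to -0.0626 without 1 library. The share of counts differed by -0.0484 points, by -0.0614 over autosomal counts, by -0.0104 without RpS3A, ATPsynbeta and eIF4G1, and by -0.0584 to -0.0322 without 1 library. None of the 17 called members changed sign under any of the 13 alternatives. Sign changed only for members that were not called. A call requires a value well away from 0, and the alternatives reuse the same libraries, so this is no measure of how firm the calls are. With library totals alone 13 members went from below to above 0, among them ci at 0.0641, lgs at 0.0430, gw at 0.0367, myo at 0.0209, ey at 0.00254, eIF4G1 at 0.0805 and PlexA at 0.0127, and with scaling on other autosomal genes Hcf and eIF4G1 did, the latter at 0.00523. With 1 library left out 2 to 7 members changed sign, and the value ranged from -0.186 to 0.145 for ci, -0.0867 to 0.0223 for lgs, -0.0822 to 0.0116 for gw, -0.648 to 0.208 for ey, -0.0613 to 0.184 for Sox102F and -0.0614 to 0.0592 for eIF4G1. The cause of these changes was not tested. Genes under 1 CPM rest on few counts, which limits what can be seen of them.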
